A study of Mus musculus with 2 samples.

Results

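The genes examined were 10 that encode the machinery of mitochondrial fusion, fission and cristae: Opa1, Mfn1, Mfn2, Dnm1l, Fis1, Mff, Mief1, Immt, Chchd3 and Micos10. They were chosen by symbol, and all 10 were found among the 22587 gene symbols of both count matrices. The 2 libraries held single YFP+ cells sorted from mouse hippocampus and read by the 10x Genomics 3′ assay, which counts each mRNA molecule once by its unique molecular identifier (UMI). One library came from control mice, called CT here and WT in its label, and the other from Opa1 cKO mice. The strain given for both was Opa1-Flox;Nestin-CreERT2;ROSA26YFP, while the protocol describes the control as negative for Opa1-Flox, and the study's methods give CT as Nestin-CreERT2:Rosa26YFP. All mice thus carried the tamoxifen-inducible Cre driven by Nestin, with a YFP reporter that marks recombined cells, and only Opa1 cKO mice carried the floxed Opa1 allele. Tamoxifen (TAM) was given at 8 weeks of age and cells were taken at 12 weeks, 4 weeks post-TAM, with the cells of 3 mice pooled in each library. As there was 1 library per genotype, no difference between genotypes was tested. All intervals are 95% intervals that cover counting error only, without the spread between mice or between library preparations.

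Mitochondria fuse and divide continually. The mitofusins MFN1 and MFN2 join the outer membranes of neighbouring mitochondria, and the dynamin-like GTPase OPA1 then joins the inner membranes and also holds cristae, the folds of the inner membrane, in shape. Division is carried out by DRP1, the product of Dnm1l, which is drawn to the outer membrane by the adaptors MFF, MID51 (Mief1) and, with a less settled role, FIS1. IMMT (mitofilin), CHCHD3 and MICOS10 are subunits of MICOS, the complex that builds the junctions between cristae and the inner boundary membrane. In neural stem cells (NSCs) of the dentate gyrus, mitochondrial shape and respiration are known to bear on whether the cells stay quiescent or produce neurons.

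Opa1 is the targeted gene and lies on mouse chromosome 16 from 29579334 to 29654884 on the plus strand (mm10). Mff, the member with the highest ratio of Opa1 cKO over CT, lies on chromosome 1 from 82724890 to 82752394 on the plus strand. The other members lie on chromosomes 3 (Mfn1), 4 (Mfn2 and Micos10), 5 (Fis1), 6 (Immt and Chchd3), 15 (Mief1) and 16 (Dnm1l). For these 2 genes the 250 bases before the RefSeq start (GRCm38.p6) are printed 5′ to 3′ to show the promoters of the members at either end of the comparison. Capitals mark a match to the core motif of the nuclear respiratory factor NRF1, a known activator of nuclear genes for mitochondrial proteins.
Opa1, chr16:29579084-29579333, plus strand: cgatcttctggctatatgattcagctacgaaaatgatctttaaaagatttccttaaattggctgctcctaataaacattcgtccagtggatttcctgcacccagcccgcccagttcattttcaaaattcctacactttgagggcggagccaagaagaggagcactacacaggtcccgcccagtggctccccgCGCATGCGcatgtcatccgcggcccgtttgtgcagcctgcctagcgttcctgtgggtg
Mff, chr1:82724640-82724889, plus strand: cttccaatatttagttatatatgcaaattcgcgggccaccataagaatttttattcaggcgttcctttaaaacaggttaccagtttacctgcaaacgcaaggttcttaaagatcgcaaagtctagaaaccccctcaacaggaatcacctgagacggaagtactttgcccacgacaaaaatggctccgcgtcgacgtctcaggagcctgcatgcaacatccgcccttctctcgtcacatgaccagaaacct
Both strands were searched for 4 motifs. CGCATGCG (the core of the NRF1 motif, its own reverse complement) stood from 58 to 51 bases before the Opa1 start and in 1.55% of all 32851 promoter windows of this length, and none of the other 9 members' windows held it. TGATGCAA, a composite C/EBP-ATF element used by the stress factor ATF4, was in 0.791% of all windows, the cyclic AMP element TGACGTCA in 1.55% and the E-box CACGTG in 6.02%, and none of these 3 was in the 16 windows of the 10 members. The NRF1 match was thus the only match to the 4 motifs in the Opa1 window. A match describes the letters only, and no binding was measured in these samples.

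After filters on genes per cell and on the mitochondrial share, 4186 CT and 6121 Opa1 cKO cells were kept, of 4634 and 6475 barcodes. No filter on YFP was applied, so that the scarce members gained counts, whereas the study's methods list detectable YFP expression among the filters. A YFP UMI was seen in 42.8% of kept CT cells (1790) and in 61.5% of kept Opa1 cKO cells (3764). The study reports more clustered cells than this for each genotype, so how its YFP filter was applied is not known here. The libraries shared 36 barcodes and had 10427737 and 18361862 UMIs in kept cells, with medians of 2252 and 2688 UMIs per cell. Clusters named from marker genes gave 3206 NSC pool-like cells of CT and 4264 of Opa1 cKO. Their 10 markers summed to 64055 and 59034 CPM (UMIs scaled to a total of 1000000), against 11072 and 17888 CPM in the other classes. Most of this sum was Apoe. Of the 10 markers, 9 in CT but only 6 in Opa1 cKO were over 2-fold above the other classes. These markers are shared with astrocytes, so the class may hold both. It joined 2 clusters, 1 of 3193 CT and 1589 Opa1 cKO cells and 1 of 13 CT and 2675 Opa1 cKO cells, so most cells of the 2 genotypes came from different clusters. The share of a cell's UMIs from the 13 mRNAs encoded by mitochondrial DNA (mt share) had a median over NSC pool-like cells of 5.33% in CT and 0.958% in Opa1 cKO. A cell was put in the low group under 1%, in the normal group from 2%, and in between otherwise. In CT 7 cells were low, 32 intermediate and 3167 normal, and in Opa1 cKO 2173 were low, 369 intermediate and 1722 normal. These groups are ranges of a continuous value, and 335 Opa1 cKO cells lay between 0.8 and 1.2% and 76 between 1.8 and 2.2%.

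Opa1 itself had the fewest UMIs of all members in NSC pool-like cells of both libraries. It had 148 UMIs in CT, a level of 19.0 CPM (16.0 to 22.3), and 99 UMIs in Opa1 cKO, a level of 7.87 CPM (6.39 to 9.58). The level was thus 2.41-fold lower in the library labelled Opa1 cKO, a log2 ratio of −1.27 (−1.65 to −0.89). A UMI of Opa1 was seen in 127 CT cells (3.96%) and in 94 Opa1 cKO cells (2.20%). The assay reads the 3′ end of transcripts and also counts those that lack the deleted part of the gene, so this level is no measure of the deletion. No class here is known to lack Opa1, so a background from free RNA could not be read.

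Within Opa1 cKO the level of Opa1 differed with the mt share. CT cells of normal mt share had 19.1 CPM (148 UMIs, 16.2 to 22.5). Opa1 cKO cells of normal mt share had 11.7 CPM (58 UMIs, 8.86 to 15.1), a log2 ratio over these CT cells of −0.71 (−1.18 to −0.26). Opa1 cKO cells of low mt share had 6.02 CPM (40 UMIs, 4.30 to 8.20), a log2 ratio over CT of −1.67 (−2.21 to −1.15). The lower level was therefore present in both groups of Opa1 cKO cells, and the log2 ratio of low over normal Opa1 cKO cells was −0.95 (−1.57 to −0.35). The 369 cells between the groups held 1 Opa1 UMI, which is 1.03 CPM (0.0261 to 5.74). Cells of all mt share groups in Opa1 cKO thus had a lower Opa1 level than CT cells of normal share. In Opa1 cKO cells of normal share, other scarce members were lower too. Their log2 ratios over these CT cells were −0.51 (−0.94 to −0.09) for Mief1, −0.45 for Mfn2 and −0.44 for Dnm1l, while 5 of the 10 members were above 0. Of all genes in this comparison, 10.6% were at least 1.5-fold lower and 1.53% higher. Whether the lower level in these cells was particular to Opa1 was not tested.

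**Figure D1:**
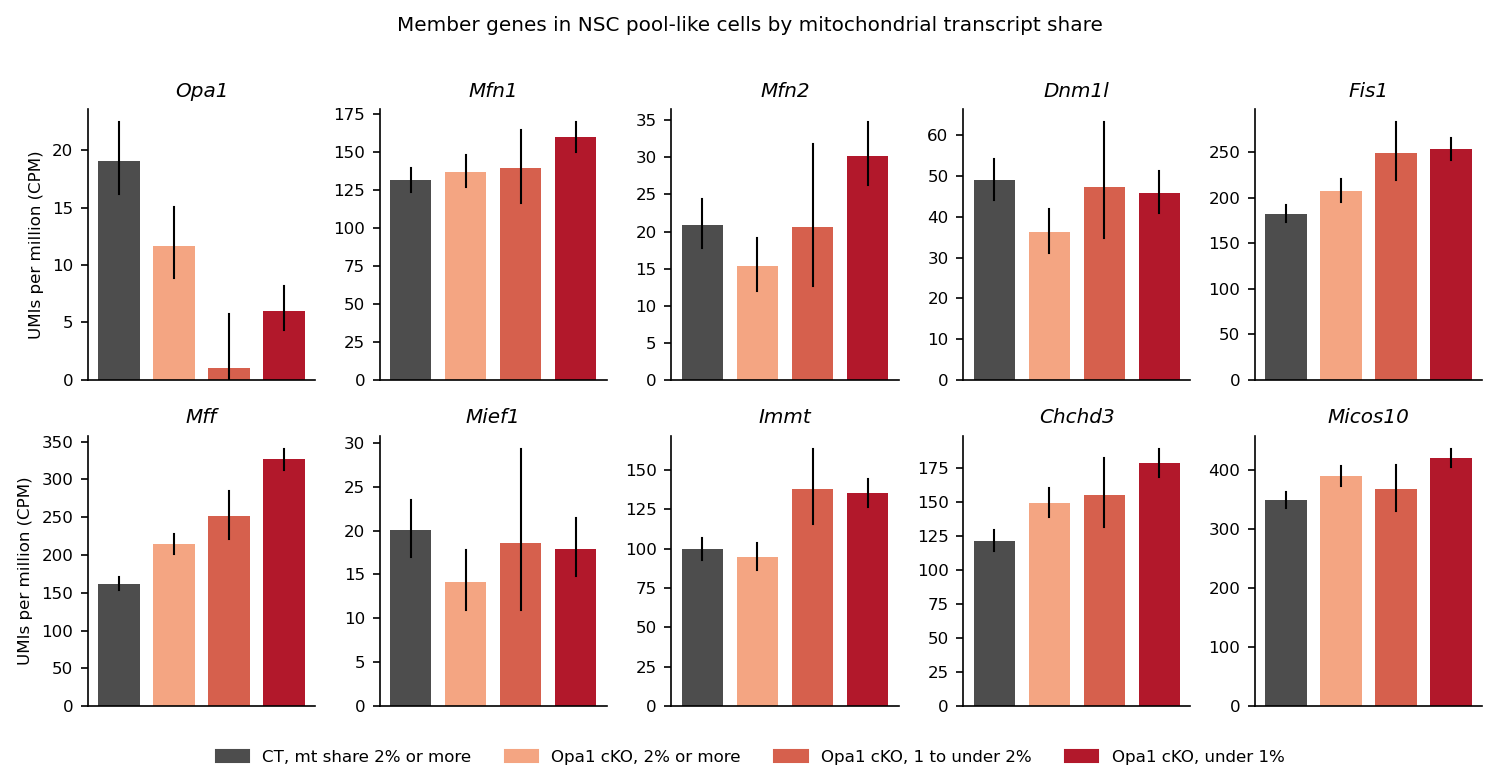
Bars give the level of each member in CPM in NSC pool-like cells of 1 CT library and 1 Opa1 cKO library, with the Opa1 cKO cells split by mt share, and lines give 95% Poisson intervals (counting error only). Opa1 was lower in every Opa1 cKO group than in CT, whereas Mff was higher in each, at 214, 251 and 327 CPM against 162 CPM.

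Of the mitofusins, Mfn1 was the more abundant by UMIs, and neither differed by 1.5-fold between the genotypes. Mfn1 stood at 131 CPM (1027 UMIs) in CT against 149 CPM (1876 UMIs) in Opa1 cKO, for a log2 ratio of 0.18 (0.07 to 0.29). Mfn2, which also tethers mitochondria to the endoplasmic reticulum, had 20.9 CPM (163 UMIs) and 23.6 CPM (297 UMIs), a log2 ratio of 0.18 (−0.10 to 0.46). The pooled Mfn2 value covered opposite values in the mt share groups. In Opa1 cKO cells of normal mt share Mfn2 was at 15.3 CPM (76 UMIs), below the 20.9 CPM (162 UMIs) of CT cells of normal share, with a log2 ratio of −0.45 (−0.87 to −0.05). In cells of low mt share it was at 30.3 CPM (201 UMIs), with a log2 ratio over the same CT cells of 0.53 (0.23 to 0.84). Mfn2 was the member with the highest ratio of low over normal Opa1 cKO cells, at 0.98 (0.60 to 1.39), while Mfn1 had 0.22 (0.08 to 0.36).

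Among the fission genes, Mff and Fis1 were higher in Opa1 cKO, while Dnm1l and Mief1 had ratios below 0. Mff, the main DRP1 receptor, stood at 162 CPM (1268 UMIs) in CT against 276 CPM (3478 UMIs) in Opa1 cKO, 1.70-fold higher with a log2 ratio of 0.77 (0.67 to 0.86). It was 0.40 (0.28 to 0.52) higher on the log2 scale in Opa1 cKO cells of normal mt share and 1.01 (0.91 to 1.11) higher in those of low mt share, both over CT cells of normal share. Mff was the one member past 1.5-fold higher in the whole class, and its level followed the order of the mt share groups. Fis1 stood at 182 CPM (1425 UMIs) and 235 CPM (2954 UMIs), a log2 ratio of 0.36 (0.27 to 0.46). Dnm1l, which encodes DRP1, stood at 48.8 CPM (381 UMIs) and 42.2 CPM (531 UMIs), a log2 ratio of −0.21 (−0.40 to −0.02). The Dnm1l ratio was −0.44 (−0.70 to −0.18) in Opa1 cKO cells of normal mt share and −0.10 (−0.32 to 0.13) in those of low mt share. Mief1 stood at 20.2 CPM (158 UMIs) and 16.4 CPM (207 UMIs), with a log2 ratio of −0.30 (−0.60 to 0.01) that included 0. The Mief1 gene (80234018 to 80253371) contains AC140267.1, a separate coding gene of the matrices on the same strand. AC140267.1 lies near the 5′ end of Mief1 (80235835 to 80236047), while the assay reads the 3′ end of transcripts. Whether counts were split between these 2 genes was not tested.

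The MICOS subunits were among the more abundant members and had small positive ratios. Micos10 had the highest counts of all members, with 350 CPM (2732 UMIs) in CT against 405 CPM (5093 UMIs) in Opa1 cKO and a log2 ratio of 0.21 (0.14 to 0.28). Chchd3 stood at 122 CPM (951 UMIs) and 166 CPM (2083 UMIs), a log2 ratio of 0.44 (0.33 to 0.56). Immt, the core subunit, stood at 99.7 CPM (779 UMIs) and 119 CPM (1502 UMIs), a log2 ratio of 0.26 (0.13 to 0.39). Immt was at 94.6 CPM in Opa1 cKO cells of normal mt share, at 138 CPM in intermediate cells and at 135 CPM in those of low mt share. Its higher level thus lay in both groups below the normal range. The log2 ratio of low over normal was 0.52 (0.35 to 0.68). Micos10 differed less between the low and normal groups (0.11, 0.02 to 0.19).

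Counted together, 1 of the 10 members was at least 1.5-fold higher in Opa1 cKO NSC pool-like cells (Mff) and 1 at least 1.5-fold lower (Opa1). Among all 9834 genes with at least 100 UMIs over the 2 libraries, 11.2% were at least 1.5-fold higher and 10.5% at least 1.5-fold lower. The median log2 ratio was 0.20 over the members and 0.03 over all these genes. In Opa1 cKO cells of low mt share over CT cells of normal share, again Mff was past the fold upward and Opa1 downward (background 20.2% and 13.5%), with a median of 0.36 against 0.11 over all genes. With Opa1 cKO cells of normal mt share in place of low, no member was past the fold upward and Opa1 was past it downward (background 1.53% and 10.6%), and the medians were −0.01 and −0.10. These comparisons shared the CT cells. Between low and normal mt share within Opa1 cKO, Mfn2 and Mff were past the fold upward and none of the 9 members with enough UMIs was past it downward (background 17.9% and 3.34%). Opa1, at 98 UMIs over these 2 groups, was just short of the 100 UMIs required. The median over all 8523 genes of this comparison was 0.24, so the ratios of Mfn1 (0.22), Fis1 (0.29), Chchd3 (0.26) and Dnm1l (0.34) lay near that of genes in general, and that of Micos10 (0.11) below it.

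**Figure D2:**
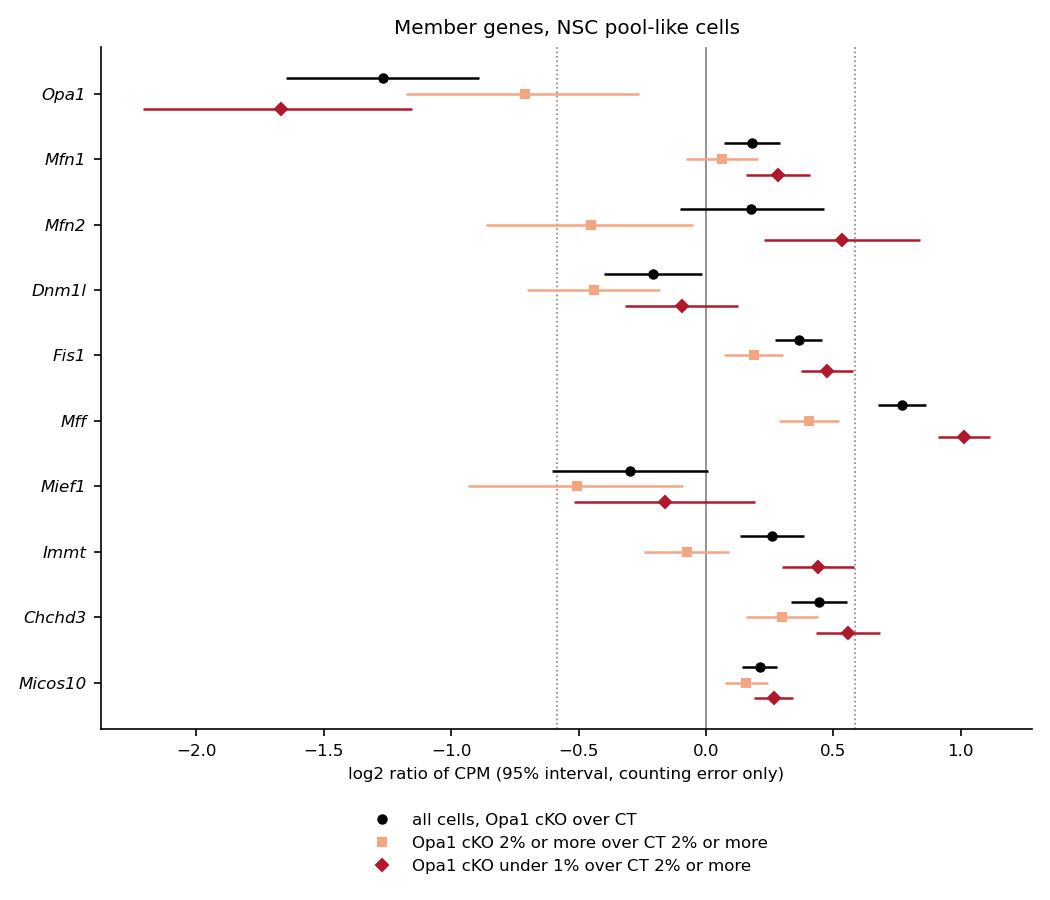
Points give log2 ratios of CPM in NSC pool-like cells for all cells and for Opa1 cKO cells of normal or low mt share over CT cells of normal share, lines give 95% intervals (counting error only), and dotted lines mark 1.5-fold. Opa1 lay left of 0 in all 3 comparisons, Mff right of 0, and Mfn2 on either side at −0.45 and 0.53.

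Markers also moved with these groups, while depth differed mainly by library. The median UMIs per NSC pool-like cell were 2220 in CT and 2600 in Opa1 cKO. By group they were 2229 in CT cells of normal mt share, and 2591 and 2654 in Opa1 cKO cells of normal and low share. The summed level of the 10 NSC pool markers, none of them at 0, was 64103 CPM in CT cells of normal mt share, 69185 CPM in Opa1 cKO cells of normal mt share and 52481 CPM in those of low mt share. Of these markers Gfap, an intermediate filament of stem cells and reactive astrocytes, was at 424, 593 and 1334 CPM, and Apoe at 44048, 48903 and 32754 CPM. The 5 markers of oligodendrocyte precursors summed to 90.8, 133 and 350 CPM, nearly all from Olig1, while the defining Pdgfra and Gpr17 were at 0 in each group. The 6 microglia markers summed to 69.7, 88.5 and 128 CPM, with Cx3cr1 and Tmem119 at 0 in the low group, and the 7 oligodendrocyte markers summed to 385, 452 and 411 CPM with none at 0. The other lists each summed to under 200 CPM in every group, namely 114 to 141 CPM for activated NSCs, 159 to 182 CPM for progenitors and neurons, 106 to 153 CPM for mural cells, 20.9 to 29.7 CPM for endothelial cells, 10.7 to 35.7 CPM for ependymal cells, 7.68 to 12.7 CPM for mature neurons and 7.98 to 111 CPM for erythroid cells. The erythroid sum differed by library, at 111 CPM in the CT cells against 8.85 and 7.98 CPM in Opa1 cKO cells of normal and low share. So did the ependymal sum, at 10.7 CPM against 35.4 and 35.7 CPM in the same order. The part of these differences in the members' ratios was not tested.

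To compare cells at equal depth, each cell was thinned to 1500 UMIs and the share of cells with at least 1 UMI was counted. Of CT normal, Opa1 cKO normal and Opa1 cKO low cells, 2757, 1557 and 1896 were deep enough, and 410, 165 and 277 were left out. Opa1 was then seen in 2.39% (1.86 to 3.04), 1.73% (1.15 to 2.51) and 0.686% (0.366 to 1.17) of cells, and before thinning in 4.01, 3.25 and 1.70%. The order of the 3 groups was the same, although the intervals of the first 2 groups overlapped. Mff was seen in 21.2% (19.7 to 22.8), 26.9% (24.7 to 29.2) and 36.6% (34.4 to 38.8) of thinned cells, in the order of its CPM and with no overlap of the intervals (30.1, 41.8 and 55.1% before thinning). Mfn2 was seen in 3.01% (2.40 to 3.72), 1.86% (1.25 to 2.66) and 4.96% (4.02 to 6.03), so its lowest share was again in Opa1 cKO cells of normal mt share (4.58, 4.12 and 8.51% before thinning).

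Finer bins of the mt share showed where along this range the levels differed. In Opa1 cKO, Opa1 stood at 5.61 CPM below 0.5% and at 6.69 CPM from 0.5 to 1%. From 1 to 2% it was lowest, at 1.03 CPM (0.0261 to 5.74) on 1 UMI in 369 cells. It was then at 12.1 CPM from 2 to 4%, at 10.2 CPM from 4 to 8% and at 18.0 CPM (9.29 to 31.4) from 8 to 20%. The last bin rested on 12 UMIs in 231 cells and its interval held the CT level of the same bin, 16.0 CPM (10.2 to 24.1). In CT, Opa1 was at 23.5 CPM from 2 to 4% and at 18.6 CPM from 4 to 8%. Mff went the other way in Opa1 cKO, with 321 and 335 CPM in the 2 lowest bins and 251 CPM from 1 to 2%. It was at 255 CPM from 2 to 4% and at 213 CPM from 4 to 8%. From 8 to 20% it was at 148 CPM (121 to 181), where CT had 141 CPM (123 to 162). In CT, Mff was at 186 and 160 CPM from 2 to 4% and from 4 to 8%, so it was lower in cells of higher mt share there too. Mfn2 was at 16.4 CPM in Opa1 cKO against 24.8 CPM in CT from 2 to 4%. From 4 to 8% these levels were 12.7 and 19.0 CPM. From 8 to 20% Mfn2 was not lower, at 25.5 CPM (14.8 to 40.8) on 17 UMIs against 23.0 CPM (15.8 to 32.3). Mitochondrial UMIs are part of the total to which CPM is scaled. With these UMIs left out of the total, the log2 ratio of low over normal Opa1 cKO cells was −1.03 for Opa1, 0.91 for Mfn2 and 0.53 for Mff, and that of Opa1 cKO over CT was −1.32 for Opa1 and 0.72 for Mff.

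**Figure D3:**
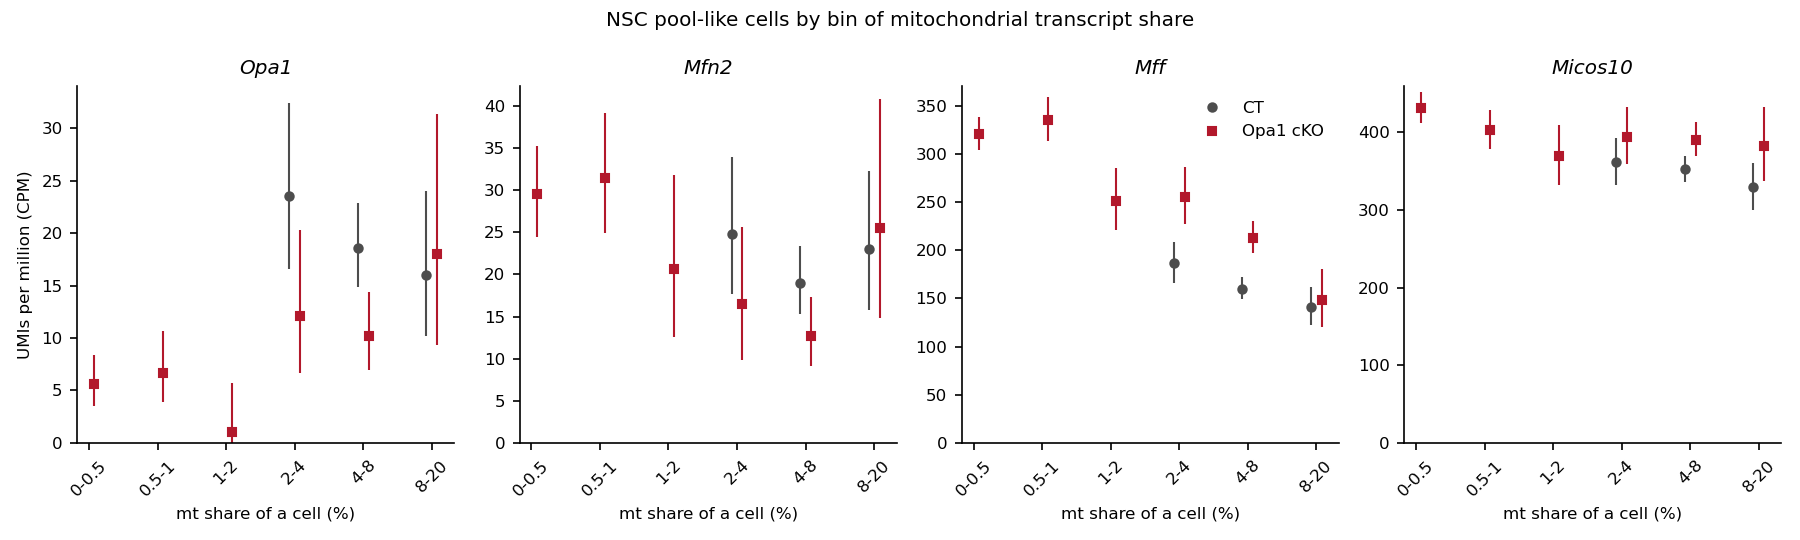
Points give the CPM of Opa1, Mfn2, Mff and Micos10 in NSC pool-like cells by bin of mt share for each library, with 95% Poisson intervals (counting error only), for bins of at least 100 cells. In the bin of 8 to 20% the intervals of both libraries overlapped for Opa1 (16.0 and 18.0 CPM) and Mff (141 and 148 CPM), while below 1% only Opa1 cKO cells were plotted.

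In the other classes Opa1 rested on 3 to 16 UMIs per library. In CT its level was 35.5 CPM in ependymal-like, 29.3 CPM in oligodendrocyte-like, 20.2 CPM in progenitor and neuron-like, 15.1 CPM in activated NSC-like, 14.5 CPM in mural-like and 13.1 CPM in endothelial-like cells, with intervals that all overlapped each other and that of the NSC pool-like cells. In Opa1 cKO it was 4.49 CPM in ependymal-like, 6.90 CPM in progenitor and neuron-like, 8.10 CPM in activated NSC-like, 14.3 CPM in oligodendrocyte-like, 15.2 CPM in endothelial-like and 17.6 CPM in mural-like cells, and neighbours in that order again overlapped. The log2 ratio of Opa1 cKO over CT was −2.98 (−4.56 to −1.44) in ependymal-like cells, the ventricle-lining cells, on 8 and 9 UMIs. Progenitor and neuron-like cells had −1.55 (−3.39 to 0.03), activated NSC-like cells −0.90 (−2.96 to 1.65) and oligodendrocyte-like cells −1.04 (−2.29 to 0.16), intervals that included 0. In vascular classes the values were 0.28 (−1.33 to 2.02) for mural-like and 0.22 (−1.18 to 1.77) for endothelial-like cells. The median mt share of the ependymal-like cells was 6.55% in CT and 0.729% in Opa1 cKO, that of the progenitor and neuron-like cells 4.09% and 1.07%, and that of the activated NSC-like cells 5.74% and 1.66%. It was closer between the libraries in oligodendrocyte-like (4.88% and 4.74%), endothelial-like (3.50% and 3.19%) and mural-like cells (3.58% and 2.63%). The endothelial-like cells also carried mural genes and globins, and the activated NSC-like class was split from a cluster that it shared with a few microglia-like cells. By the naming rule, all 10 NSC pool markers stood out in the activated NSC-like class beside 8 of its own 9. Of these 9, 7 in CT and 6 in Opa1 cKO were over 2-fold above the other classes. The class thus shares markers with the NSC pool-like class. It held 78 CT and 357 Opa1 cKO cells, and 10 and 400 when only cells with a YFP UMI were clustered. With mitochondrial, integrated stress response and member genes left out of the clustering, no cluster took this name.

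Of the other members, few were past 1.5-fold with at least 100 UMIs in these classes, where 4 to 6 members had enough UMIs. In activated NSC-like cells Fis1 was at 121 CPM (24 UMIs) in CT against 233 CPM (230 UMIs) in Opa1 cKO, for a log2 ratio of 0.95 (0.34 to 1.62), against a background of 19.1% of genes past the fold upward and 7.2% downward. In the remaining 5 classes no member with enough UMIs was past the fold. Of all genes tested there, 10.4% were past it upward and 11.7% downward in progenitor and neuron-like cells, 13.9% and 7.87% in ependymal-like, 13.2% and 9.27% in mural-like, 4.78% and 9.23% in endothelial-like, and 5.87% and 7.97% in oligodendrocyte-like cells. Mff was 0.38 (0.07 to 0.70) higher on the log2 scale in progenitor and neuron-like cells and 0.55 (0.07 to 1.06) higher in activated NSC-like cells, while ependymal-like cells had a ratio of −0.32 (−0.76 to 0.14). In mural-like cells Mff was at 155 CPM in CT against 204 CPM in Opa1 cKO. It was at 179 against 228 CPM in oligodendrocyte-like and at 209 against 236 CPM in endothelial-like cells. The level intervals of the 2 libraries overlapped in each of these 3 classes. Mfn2 in activated NSC-like cells was at 40.3 CPM in CT against 12.1 CPM in Opa1 cKO, on 8 and 12 UMIs. Mfn1 in mural-like cells, also short of 100 UMIs, was at 7.26 CPM (3 UMIs) in CT against 49.2 CPM (28 UMIs) in Opa1 cKO. The level intervals of Mfn1 in mural-like cells did not overlap, while those of Mfn2 in activated NSC-like cells overlapped slightly. Level intervals can overlap where the interval of the ratio excludes 0, as that of Mfn2 did here (log2 ratio −1.73). In progenitor and neuron-like cells Mfn1 was at 15.5 CPM (10 UMIs) against 41.4 CPM (30 UMIs), with intervals that overlapped slightly. Dnm1l went the other way in mural-like cells, at 60.5 CPM (25 UMIs) in CT against 28.1 CPM (16 UMIs) in Opa1 cKO. Its level intervals overlapped slightly as well. Within Opa1 cKO, the ependymal-like cells of low mt share (346 cells) had 161 CPM of Mff and those of normal share (68 cells) 154 CPM, so the order seen in NSC pool-like cells was not resolved there (log2 ratio 0.06, −0.45 to 0.60). Of the 6 members with enough UMIs in that comparison, none was past 1.5-fold upward and Chchd3 was past it downward, at 80.8 against 126 CPM (−0.64, −1.23 to −0.0043), against 7.99% of all genes upward and 4.17% downward. The median log2 ratio of these 6 was −0.15 and that of all genes 0.11. For the same comparison of NSC pool-like cells the medians were 0.34, over 9 members, and 0.24. The member medians of the 2 classes thus cover different sets of members. In 98 low and 146 normal activated NSC-like cells Mff was at 307 and 252 CPM (0.29, −0.16 to 0.73).

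The members also differed between classes of the same library. Mfn1 was highest in NSC pool-like cells, at 131 CPM in CT, and lowest in mural-like cells at 7.26 CPM (3 UMIs) and in progenitor and neuron-like cells at 15.5 CPM (10 UMIs). In Opa1 cKO these 2 classes had 49.2 CPM (28 UMIs) and 41.4 CPM (30 UMIs) against 149 CPM in NSC pool-like cells. Of progenitor and neuron-like over NSC pool-like cells, the log2 ratio of Mfn1 was −3.08 (−4.15 to −2.20) in CT and −1.85 (−2.42 to −1.33) in Opa1 cKO, and that of Chchd3 −1.01 (−1.51 to −0.55) and −1.07 (−1.48 to −0.69). Dnm1l was higher in CT progenitor and neuron-like cells, at 82.3 CPM against 48.8 CPM, a log2 ratio of 0.75 (0.31 to 1.17), and at 57.9 against 42.2 CPM in Opa1 cKO (0.46, −0.03 to 0.91). In this comparison 1 member was past 1.5-fold upward and 2 downward in CT (background 37.9% and 29.2%), and 0 and 2 in Opa1 cKO (background 31.9% and 28.2%). Activated NSC-like cells also had less Mfn1 than NSC pool-like cells, with log2 ratios of −1.12 (−2.08 to −0.31) in CT and −0.78 (−1.11 to −0.46) in Opa1 cKO. Fis1 was highest in oligodendrocyte-like cells of both libraries, at 624 CPM (559 to 694) in CT against 597 CPM (543 to 654) in Opa1 cKO, with the next class at 272 and 297 CPM.

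**Figure D4:**
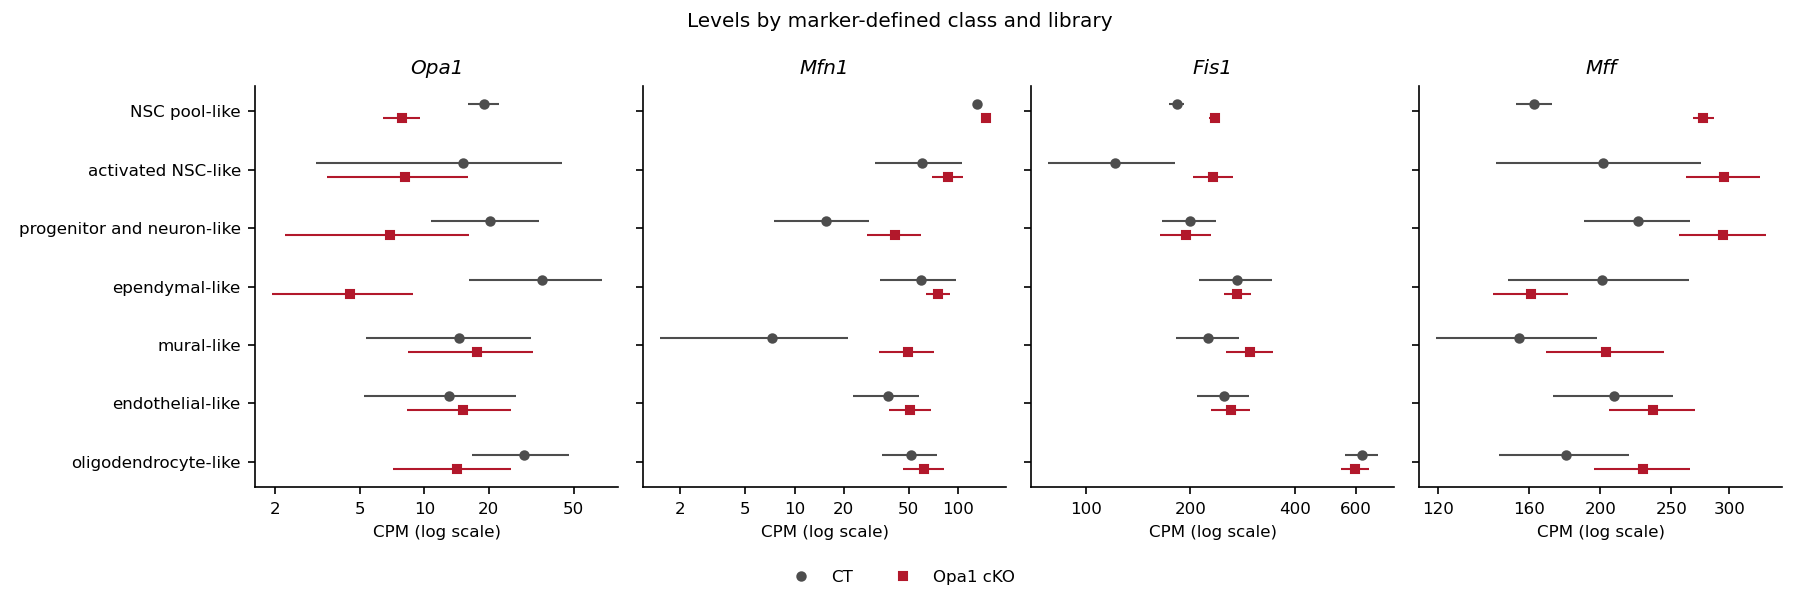
Points give the CPM (log scale) of Opa1, Mfn1, Fis1 and Mff in each marker-defined class of the CT and Opa1 cKO libraries, with 95% Poisson intervals (counting error only). Opa1 intervals of the 2 libraries were apart in NSC pool-like cells (19.0 and 7.87 CPM) and ependymal-like cells (35.5 and 4.49 CPM), and Fis1 stood highest in oligodendrocyte-like cells.

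A YFP UMI was used to set cells with a read of the reporter beside the others. Of Opa1 cKO NSC pool-like cells, 59.7% (57.8 to 61.5) of those with a YFP UMI and 35.5% (33.1 to 38.0) of those without were of low mt share, against 0.223% and 0.215% in CT. Opa1 was at 7.36 CPM (66 UMIs, 5.69 to 9.36) in Opa1 cKO cells with a YFP UMI and at 9.12 CPM (33 UMIs, 6.28 to 12.8) in those without, so the levels were not resolved from each other. In CT these were 18.7 and 19.2 CPM. Mff was at 294 CPM with and 232 CPM without a YFP UMI in Opa1 cKO, for a log2 ratio of 0.35 (0.23 to 0.46), and at 165 and 160 CPM in CT. Cells with a YFP UMI were deeper, with a median of 2982 against 2122.5 UMIs in Opa1 cKO, and a deeper cell is more likely to show a YFP UMI. No member with enough UMIs was past 1.5-fold between these cells, where 0.472% of all genes in CT and 1.9% in Opa1 cKO were past it upward, and 0.984% and 1.48% downward.

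Beyond the 10 members, a list of 35 further genes of OPA1 processing, outer membrane fusion, fission and cristae was read in NSC pool-like cells, and 32 of them had enough UMIs. Over CT, 6 of these were at least 1.5-fold higher in Opa1 cKO and 1 was at least 1.5-fold lower (background 11.2% and 10.5% of all genes), with a median log2 ratio of 0.20 against 0.03 over all genes. In cells of low mt share over CT cells of normal share there were 11 higher and 2 lower (background 20.2% and 13.5%), and in Opa1 cKO cells of normal share none of the 32 was past the fold either way (background 1.53% and 10.6%). Of low over normal Opa1 cKO cells there were 8 higher and 0 lower (background 17.9% and 3.34%), with a median of 0.35 against 0.24 over all genes.

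Among the genes of OPA1 processing and the inner membrane, Oma1, the stress-activated protease that cleaves OPA1, stood at 12.5 CPM in CT against 17.4 CPM in Opa1 cKO (log2 ratio 0.47, 0.12 to 0.83). Yme1l1, the protease that cleaves OPA1 under basal conditions, stood at 91.8 and 69.4 CPM (−0.40, −0.55 to −0.26). Over the whole class the ratios of these 2 proteases were thus of opposite sign, and both were within 1.5-fold. In cells of low mt share over CT cells of normal share, Oma1 was past 1.5-fold at 19.7 against 12.5 CPM (0.65, 0.26 to 1.05), and Yme1l1 was at 73.6 against 92.1 CPM (−0.32, −0.49 to −0.15). Phb, a scaffold of the inner membrane, was 1.5-fold higher or more at 85.7 and 135 CPM (0.66, 0.53 to 0.79). Slc25a46, an outer membrane protein linked to fusion and fission, was past 1.5-fold between low and normal Opa1 cKO cells, at 93.5 and 60.2 CPM (0.64, 0.43 to 0.84).

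Of the genes that control outer membrane fusion, Marchf5, a ubiquitin ligase for DRP1 and the mitofusins listed in the files as March5, stood at 33.8 and 57.9 CPM (0.78, 0.57 to 0.99). It was at 71.2 CPM in Opa1 cKO cells of low mt share and 40.0 CPM in those of normal share. Of the fission list, Mtfr1l, a mitochondrial fission regulator, stood at 77.1 and 128 CPM (0.73, 0.59 to 0.87), with 160 CPM in low and 84.9 CPM in normal Opa1 cKO cells. Inf2, a formin of the endoplasmic reticulum that assembles actin at division sites, was the 1 listed gene past the fold downward over the whole class, at 46.1 and 27.1 CPM (−0.77, −0.98 to −0.55). In cells of low mt share over CT cells of normal share it was at 23.3 against 45.8 CPM (−0.97, −1.26 to −0.70), and Miga2 of the outer membrane fusion list was past the fold downward too, at 16.7 against 26.5 CPM (−0.66, −1.01 to −0.32). Mief2, which encodes the DRP1 receptor MID49, and Dnm2, a dynamin, were past the fold between low and normal Opa1 cKO cells, at 19.6 and 11.9 CPM (0.72, 0.27 to 1.19) and at 77.2 and 49.7 CPM (0.64, 0.41 to 0.86).

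Of the cristae list, Chchd10, a protein of the intermembrane space, was the most abundant at 1272 and 2152 CPM (0.76, 0.73 to 0.79). It stood at 2679 CPM in low and 1527 CPM in normal Opa1 cKO cells and was also among the 10 leading genes of the cluster that held 13 CT and 2675 Opa1 cKO cells. Chchd6, a MICOS subunit, stood at 36.6 and 60.5 CPM (0.72, 0.53 to 0.92), and Mtx2, of the outer membrane complex that MICOS binds, at 37.3 and 56.9 CPM (0.61, 0.41 to 0.81). Dnajc11, another partner of that complex, was past the fold only between low and normal Opa1 cKO cells among the comparisons made, at 30.9 and 20.1 CPM (0.62, 0.27 to 0.98).

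**Figure D5:**
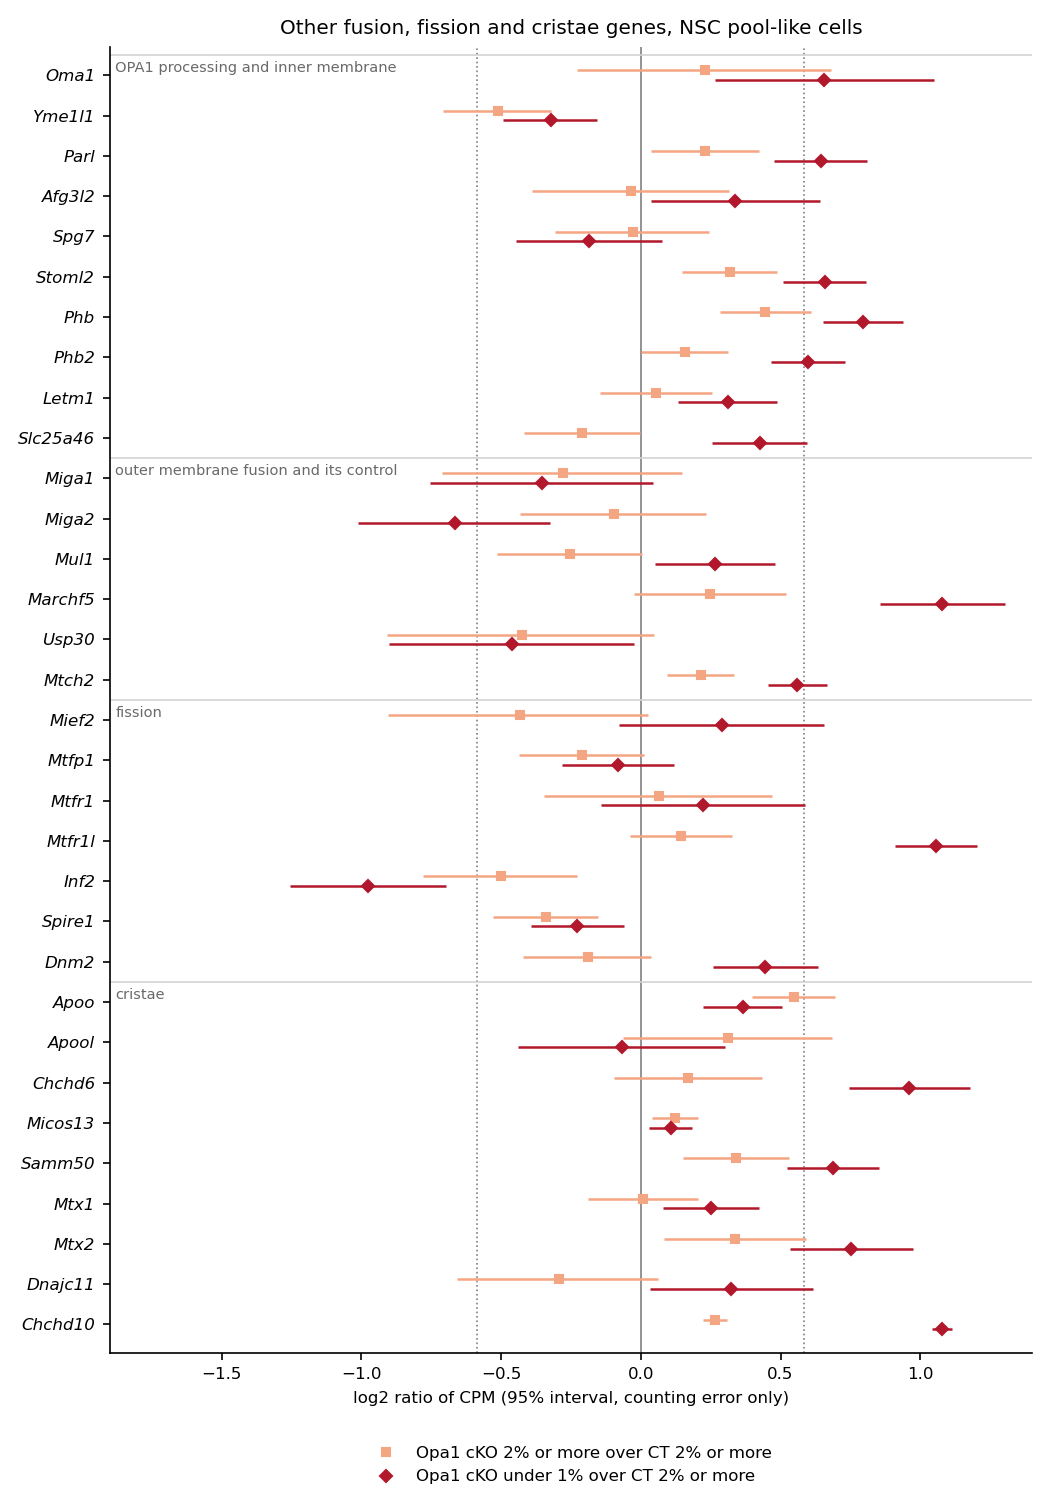
Points give log2 ratios of CPM in NSC pool-like cells for further genes with at least 100 UMIs in both comparisons, for Opa1 cKO cells of normal or low mt share over CT cells of normal share, lines give 95% intervals (counting error only), and dotted lines mark 1.5-fold. Marchf5, Mtfr1l, Chchd6 and Chchd10 lay right of the dotted line for cells of low mt share, and no point for cells of normal mt share lay beyond either dotted line.

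The genes whose levels were most like that of Opa1 over the 14 sums of 7 classes and 2 libraries were read as a description. By Pearson's r of log2(CPM + 10) over 11459 genes they were mt-Co1 (0.85), mt-Cytb (0.83), Dcaf6 (0.82), mt-Co3 (0.81) and mt-Atp6 (0.79), 4 of which are encoded by mitochondrial DNA. The r of the other 9 members with Opa1 ran from −0.43 (Chchd3) to 0.27 (Fis1). The 14 sums share libraries and differ in depth, and Opa1 rested on few UMIs in most of them.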

How the data were processed

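The authors sequenced 2 single-cell libraries (10x Genomics 3′ v2) and aligned reads to mm10 with Cell Ranger; the submitters' processing notes name version 2.1.1, while the matrix headers give software version 3.1.0. The deposited values are UMI counts per gene and barcode, not normalized. Gene positions came from GENCODE M21, in which Micos10 is named Minos1, and promoters from RefSeq.

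Barcodes were kept at over 600 and below 7500 genes and at under 20% mitochondrial UMIs, and doublets were not removed. Both libraries were normalized with SCTransform and clustered on 8 principal components at a resolution of 0.2 (R 4.3.3, Seurat 5.3.0, sctransform 0.4.2). A marker counted where it stood over 2-fold above the lower quartile of the other clusters, with 10 CPM added to each. Clusters were named where at least 3 markers of a class counted, and at least 33.3% of its list. Among classes that met this, the one with most markers among the 50 leading genes gave the name. A cluster with 2 classes' markers was split by k-means into 2 groups. The form of this rule was set after the clusters were seen.

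UMIs were summed per library, class and mt share group and scaled to CPM (Python 3.11.15, scipy 1.17.1). Intervals were exact Poisson for levels, exact binomial (of the split of UMIs) for ratios, and Clopper-Pearson for shares. A gene was counted past 1.5-fold with at least 100 UMIs over both groups.

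The members and gene lists were chosen with earlier results of these data known. Named genes were the members, listed genes past 1.5-fold over CT or between low and normal mt share, Oma1 and Yme1l1, and the 5 genes most like Opa1. Alternatives changed the cell filters, clustering, normalization, scaling, depth and mt share limits. PCR and sequencing errors, mice and library preparations lie outside the intervals.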

Additional observations from a re-analysis of the deposited data

Results flagged for a closer look

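Mfn2 was the one member with ratios over CT of opposite sign whose intervals each excluded 0. The log2 ratio over CT cells of normal mt share was 0.53 in Opa1 cKO NSC pool-like cells of low mt share and −0.45 in those of normal mt share, and over CT it was −1.73 in activated NSC-like cells, on 12 and 8 UMIs. Each value came from 1 library per genotype, and the difference between these groups was not tested.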

How the results depend on the processing

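No paired analysis was possible because each genotype had 1 library, and for the same reason no replicate could be left out. Over the 9 alternatives named at the outset and 2 added after seeing the data (without the barcodes shared by the libraries, and with only the cluster that held most CT cells), the log2 ratio of Opa1 cKO over CT in NSC pool-like cells lay between −1.37 and −0.73 for Opa1 and between 0.40 and 0.84 for Mff. In that single cluster, with 1589 Opa1 cKO cells, Opa1 was at −0.73, Mfn2 at −0.49 and Mff at 0.40, and 0 members were past 1.5-fold upward. Immt went there from 0.26 to −0.11 (−0.29 to 0.06) and Mfn1 from 0.18 to 0.04 (−0.11 to 0.18). Intervals of Fis1, Chchd3 and Micos10 stayed above 0. That set leaves out 2675 Opa1 cKO cells. Of low over normal mt share within Opa1 cKO, 13 alternatives gave −1.33 to −0.72 for Opa1, 0.83 to 1.04 for Mfn2 and 0.53 to 0.61 for Mff. The count of members past 1.5-fold upward was 1 in place of 2 with at least 1 YFP UMI, CPM without mt- genes, a mean over cells, and single limits of 1% and of 2%, as Mff then lay just under the fold. Mief1 went from 0.35 to −0.37 (−1.09 to 0.35) when thinned to 1500 UMIs. Members with few UMIs, Opa1, Mfn2 and Mief1, are limited by depth outside the NSC pool-like class.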
